A study of Mus musculus with 4 samples.

Results

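Chondroitin sulfate proteoglycans and the proteins that bind them were followed as 9 of the 33696 gene features in the matrices. These were the lecticans Acan, Bcan, Ncan and Vcan, the membrane proteoglycans Ptprz1 and Cspg4, the link protein gene Hapln1, and the tenascins Tnr and Tnc. The genes were chosen by name, and all 9 had UMIs (unique molecular identifiers, which count captured transcript molecules) in both libraries. Single-nucleus RNA-seq was done on mouse brain 21 days post-injury (dpi) with photothrombotic (PT) injury, in which light and an injected dye close the vessels of a patch of cortex. The library labelled control came from mice whose genotype is given as WT. The library labelled Cxcl12-cKO came from Col1a2(creER); Cxcl12(flox) mice, which carry a Cre under the control of Col1a2, a gene of fibroblasts and other collagen-producing cells, made active by tamoxifen, and a floxed gene for the chemokine CXCL12. Each library pooled tissue from 1 female and 1 male mouse, on a C57BL/6 background by the study's methods, whose ages the labels do not give. Nuclei were traced to the female or the male by UMIs of Xist or of Y-linked genes, and those with both or neither were left out of the values by mouse. Lesion and surrounding parenchyma carried separate tags and were mixed at 75% and 25%, so the number of nuclei from each region was set before capture.

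Lecticans are large secreted proteoglycans that bind hyaluronan, a long sugar polymer made at the cell surface. Link proteins such as HAPLN1 hold that bond in place, and tenascins join neighbouring lecticans into a mesh, which is densest in the perineuronal nets around certain interneurons. Astrocytes and oligodendrocyte progenitor cells (OPCs) are known sources of these proteins in the scar around a brain injury, where their chondroitin sulfate chains hinder the growth of axons.

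After filtering, 21743 of 23489 barcodes were kept. Median depth was 2962 and 2975 UMIs per lesional nucleus and 15915 and 16648 per parenchymal nucleus (control and Cxcl12-cKO labels in that order here and below). Cxcl12 itself had 1538 UMIs under the control label in lesional fibroblast-like nuclei, or 106 CPM (UMIs of the gene per 1000000 UMIs summed over that class), and 3211 UMIs, or 215 CPM, under the Cxcl12-cKO label. The level was thus higher in the library labelled as the knockout. The sources used here do not say which part of Cxcl12 is deleted, so UMIs counted near the 3′ end of transcripts check nothing, and libraries are called by their labels throughout. Whether the labels were exchanged was not tested, and exchanged labels would turn the sign of every ratio between the libraries. Classes were named from marker lists that held none of the 9 genes, and 631 of 8095 (7.79%) and 357 of 7933 (4.50%) lesional nuclei of the libraries stayed unnamed. The nuclei called OPC-like were led by Bcas1 and Enpp6, which mark young oligodendrocytes, along with Sox10 and Sox6. Their mean log2 fold was 5.41 for the OPC list and 4.62 for the oligodendrocyte list, with 7 and 6 markers up. The libraries shared between 1 and 22 barcodes per pairing of regions. Classes of under 50 nuclei are left out of the orders below. With 1 library for each genotype no difference between them has a replicate check, and the 95% intervals given here cover counting error only.

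Among the lecticans, Bcan and Vcan were highest in OPC-like nuclei and Ncan in astrocyte-like nuclei. When nuclei were classed singly from markers rather than by cluster, the leading class stayed for Vcan, Cspg4, Ptprz1 and Tnr, and became astrocyte for Bcan, excitatory neuron for Ncan, inhibitory neuron for Hapln1, fibroblast for Acan and osteoblast lineage for Tnc. At resolution 0.5, or with nuclei of high Scrublet (doublet) scores removed, a mural class was named and led for Acan and Cspg4. Bcan, which encodes brevican, the small lectican of the adult brain, stood at 199.5 CPM (174 to 228) in 218 OPC-like nuclei and at 174 CPM (161 to 187) in 957 astrocyte-like nuclei. Those intervals overlap, so the order of the leading pair was not resolved. Inhibitory neuron-like nuclei followed for Bcan at 22.0 CPM, oligodendrocyte-like nuclei had 14.8 CPM, and excitatory neuron-like nuclei had 3.33 CPM. The last was close to the 3.56 CPM of myeloid-like nuclei, which should lack the gene and serve as a measure of free RNA. Excitatory nuclei were much deeper, at a median of 17174 UMIs against 2144, so this measure sets no floor in CPM for them. A UMI of Bcan was seen in 51.4% of OPC-like, 39.6% of astrocyte-like and 0.840% of myeloid-like nuclei. With each nucleus thinned to 1000 UMIs these shares became 20.1% of 214, 14.2% of 953 and 0.362% of 3589, so the order held at equal depth.

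Vcan encodes versican, which is made by OPCs and by connective tissue cells. OPC-like nuclei held 1028 CPM (970 to 1090), astrocyte-like nuclei 133 CPM (122 to 145) and fibroblast-like nuclei 86.8 CPM (83.5 to 90.2), with no overlap between neighbours in that order. Of the astrocyte-like clusters described below, only that led by Cdh19 exceeded the fibroblast-like level, at 389 CPM. The others had 64.9 and 37.1 CPM. Vcan lay at 29.5 CPM in inhibitory, 16.2 CPM in oligodendrocyte-like, 10.8 CPM in myeloid-like and 9.26 CPM in excitatory nuclei. Versican UMIs were found in 15.9% of the 8540 fibroblast-like nuclei and in 4.04% of the 445 oligodendrocyte-like nuclei, and in 6.59% and 1.36% after thinning.

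Ncan, the gene of neurocan, was measured at 73.1 CPM (65.0 to 81.9) in astrocyte-like and 44.8 CPM (43.4 to 46.2) in excitatory nuclei. OPC-like nuclei at 27.9 CPM (18.9 to 39.6) could not be ordered against inhibitory nuclei at 25.5 CPM, and all of these exceeded the 4.38 CPM of myeloid-like nuclei. Acan, the gene of aggrecan, the lectican of cartilage and of perineuronal nets, was sparse, at 12.6 CPM from 14 UMIs (6.88 to 21.1) in OPC-like nuclei, 12.4 CPM from 371 UMIs (11.1 to 13.7) in fibroblast-like nuclei and 9.87 CPM in astrocyte-like nuclei. The first interval covers both other values, so no class led for Acan. Inhibitory nuclei had 4.93 CPM (3.97 to 6.06), against 1.32 CPM in myeloid-like and 0.368 CPM in excitatory nuclei.

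Ptprz1 encodes a receptor phosphatase whose secreted form is a brain proteoglycan. Its level was 1604 CPM (1531 to 1681) in OPC-like and 1442 CPM (1405 to 1480) in astrocyte-like nuclei. Inhibitory nuclei followed at 132 CPM (126 to 137), then endothelial-like nuclei at 51.6 CPM, oligodendrocyte-like nuclei at 49.2 CPM and excitatory nuclei at 22.1 CPM, beside 15.4 CPM in myeloid-like and 11.0 CPM in fibroblast-like nuclei. Cspg4 encodes NG2, the proteoglycan that marks OPCs and pericytes. It reached 141 CPM (120 to 165) in OPC-like nuclei. Myeloid-like nuclei came next at 46.3 CPM (42.1 to 50.8), above fibroblast-like nuclei at 19.4 CPM (17.8 to 21.0), astrocyte-like nuclei at 18.0 CPM and oligodendrocyte-like nuclei at 11.4 CPM (6.67 to 18.3). For Cspg4 the myeloid-like level is thus not shared by the other classes, and neurons had 0.613 and 0.493 CPM.

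Of the linking proteins, Tnr, the tenascin of oligodendrocyte lineage cells and neurons, was at 9114 CPM (8938 to 9293) in OPC-like nuclei, and all 218 of them had a UMI of it. Astrocyte-like nuclei had 799 CPM (772 to 827), excitatory nuclei 516 CPM (512 to 521), inhibitory nuclei 387 CPM (378 to 396) and oligodendrocyte-like nuclei 92.2 CPM, each separate from its neighbours. Among the astrocyte-like clusters described below, only that led by Cdh19 was above the excitatory level, at 1743 CPM. The others had 347 and 502 CPM. Myeloid-like nuclei gave 34.3 CPM of Tnr and fibroblast-like nuclei 20.3 CPM. Tnc, the tenascin of development and of wounds, had its highest level in astrocyte-like nuclei at 373 CPM (355 to 393), then in fibroblast-like nuclei at 103 CPM (99.3 to 107) and OPC-like nuclei at 35.1 CPM (24.9 to 47.9), while excitatory nuclei had 2.38 CPM, below the 7.12 CPM of myeloid-like nuclei. Hapln1 was highest in astrocyte-like nuclei at 26.2 CPM (21.4 to 31.6), followed by inhibitory nuclei at 13.9 CPM (12.3 to 15.7) and OPC-like nuclei at 8.99 CPM, with 1.83 CPM in myeloid-like nuclei.

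**Figure D1:**
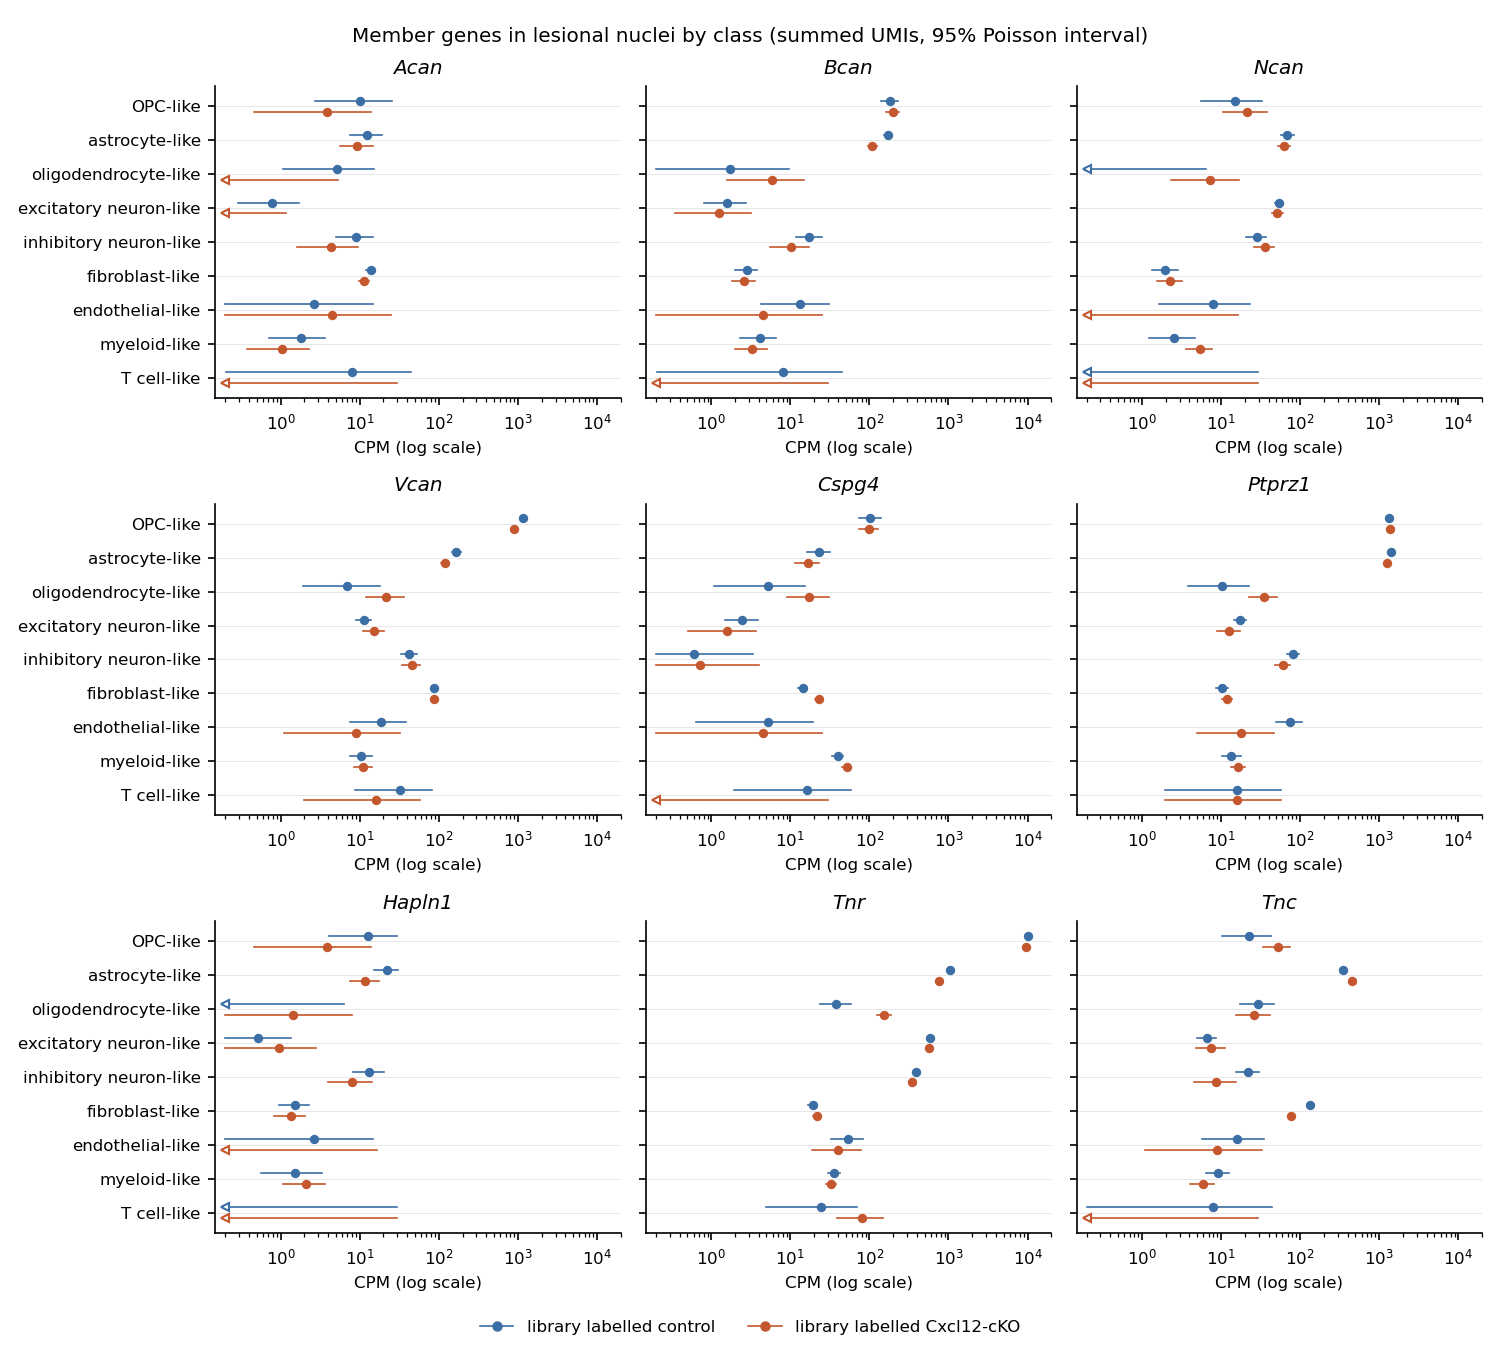
Level of each gene in lesional nuclei in CPM (log axis) by cell class and library, with 95% Poisson intervals; an open arrowhead pointing left marks a class with 0 UMIs. OPC-like and astrocyte-like nuclei lead for Ptprz1 (1319.6 and 1384 CPM in the OPC-like nuclei of the libraries), while Acan, Vcan, Cspg4 and Tnc are also measured in fibroblast-like nuclei.

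In fibroblast-like nuclei, therefore, Bcan (2.73 CPM), Ncan (2.17 CPM), Hapln1 (1.43 CPM), Ptprz1 and Tnr were at or below the myeloid-like level and are read as background. Acan and Tnc were above it, Vcan was above the oligodendrocyte-like level, and Cspg4 was below the myeloid-like and near the oligodendrocyte-like level. A UMI of Acan was seen in 3.10% of fibroblast-like and 0.289% of myeloid-like nuclei, whose median depths were 3074 and 2144 UMIs. At 1000 UMIs per nucleus these were 1.14% of 8311 and 0.0836% of 3589, leaving out 229 and 220 shallower nuclei.

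Fibroblast-like nuclei were the most numerous class in the lesion. Of the lesional UMIs of all genes they held 14573950 of 33470866 and 14958945 of 30864931 in the libraries. The shares of Tnc and Cspg4 below are therefore not read as enrichment in this class. They gave 70.1% of the lesional Acan UMIs (371 of 529), 53.0% of Vcan (2601 of 4912), 46.9% of Tnc (3084 of 6578) and 41.0% of Cspg4, of which myeloid-like nuclei gave another 33.7%. Unnamed nuclei gave 26.5% of lesional Tnc (1745 UMIs), ahead of the 22.3% of astrocyte-like nuclei, and 12.7% of lesional Acan. Astrocyte-like nuclei gave 60.5% of lesional Ptprz1 and 51.2% of Bcan, and OPC-like nuclei 41.9% of Tnr (9019 of 21516). In the parenchyma neurons held most of the UMIs of most of the genes. Of the parenchymal UMIs of all genes, excitatory nuclei held 39861701 of 47587997 and 39023411 of 48051671 in the libraries. Inhibitory nuclei held 6995237 and 8220343 of the same totals. The excitatory shares below are therefore not read as enrichment, and those of Vcan and Tnc lie below the share of all UMIs in excitatory nuclei. Excitatory nuclei held 88.5% of Ncan, 84.9% of Tnr (40087 of 47213), 51.3% of Vcan and 58.6% of the 237 Tnc UMIs, and inhibitory nuclei held 65.7% of the 105 Acan UMIs and 65.8% of Hapln1. Cspg4 was an exception, with 46.1% of its 141 parenchymal UMIs in OPC-like and 22.0% in fibroblast-like nuclei. These shares follow the number and depth of the captured nuclei as well as the level per nucleus. Parenchymal excitatory nuclei had 8.15 and 9.53 CPM of Vcan, below the oligodendrocyte-like level above. They had 1.63 and 1.90 CPM of Tnc, below the myeloid-like level. These excitatory nuclei were much deeper than both of those classes, at medians of 17469.5 and 18411 UMIs, so those levels set no floor for them. How much of their Vcan and Tnc shares is background was not tested.

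Bcan and Ptprz1 had the most similar patterns of any pair among the 9 genes, with a Pearson correlation of 0.93 across 24 sums of UMIs by class, region and library (log scale). The points share libraries and depth, so this is a description. The lowest value was -0.22, for Ncan and Cspg4. The 250 bases before the start of this pair are shown because the genes move together. They come from RefSeq in build GRCm38.p6, not the GRCm39 build of the deposited matrices, and capitals mark the GC box GGGCGG or its reverse complement CCGCCC. The Bcan sequence covers chr3:88000357-88000606 on the minus strand and the Ptprz1 sequence chr6:22875252-22875501 on the plus strand.
Bcan: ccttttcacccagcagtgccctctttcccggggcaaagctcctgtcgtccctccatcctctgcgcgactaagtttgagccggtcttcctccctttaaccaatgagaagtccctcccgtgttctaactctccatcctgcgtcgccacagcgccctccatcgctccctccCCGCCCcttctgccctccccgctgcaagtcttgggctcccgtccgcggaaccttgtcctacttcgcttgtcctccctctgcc
Ptprz1: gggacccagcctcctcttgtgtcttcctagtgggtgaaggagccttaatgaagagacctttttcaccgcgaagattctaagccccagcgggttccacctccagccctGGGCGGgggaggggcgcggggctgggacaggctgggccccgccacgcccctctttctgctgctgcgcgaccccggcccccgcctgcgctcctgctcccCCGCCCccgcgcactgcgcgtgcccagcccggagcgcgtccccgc
Both hold a GC box, as did windows of 7 of the 9 genes (Acan, Bcan, Cspg4, Ncan, Ptprz1, Tnc and Vcan) and 32.7% of 32851 mouse promoters of the same length, overlaps between motifs allowed. The Bcan window had 16 CpG sites and the Ptprz1 window 22, against a median of 6 over all promoters and 2 in the window of Tnr. The motif ACAAAG or CTTTGT was in the Tnr window alone among the 9 genes and in 16.5% of all, and CAGCTG was in the windows of Acan and Ncan and in 13.0% of all.

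Other genes whose sums followed a member most closely were taken from 13659 genes with at least 500 UMIs, over the same 24 sums. For Ptprz1 these were Bcan and Plpp4 (both 0.93) and Lhfpl3 (0.89), and for Bcan, after Ptprz1, Stk32a (0.88). Vcan was closest to Has2os (0.89), the antisense RNA of hyaluronan synthase 2, and to Ugdh (0.85), which makes a sugar precursor of hyaluronan and chondroitin sulfate. Tnr was closest to Frmd4a (0.95), Ncan to Ntm (0.92), Cspg4 to Epb41l2 (0.90), Hapln1 to Frmpd1 (0.90) and Tnc to Greb1 (0.89). Acan had no gene above the 0.75 of Cacng4.

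Fibroblast-like nuclei of the lesion were split into subclusters, 3 of which carried the study's fibroblast state names by their markers. The altered dural name was weak, with 3 markers up, a mean log2 fold of 0.57 and no list marker among the 10 leading genes. Dpp4, a marker on its list, was a leading gene of the arachnoid-like subcluster. At resolution 0.5 a subcluster of 1605 nuclei with much the same leading genes had 2 markers up and stayed unnamed. Each of 4 genes had its own order of states. Acan was concentrated in late inner-like nuclei, at 32.4 CPM (29.1 to 36.0) from 351 UMIs in 2953 nuclei, against 0.970 CPM (9 UMIs) in 2944 arachnoid-like, 0.601 CPM (4 UMIs) in 1597 altered dural-like and 0.747 CPM (2 UMIs) in 866 nuclei of an unnamed subcluster led by Gm30613 and Col4a6. A small subcluster of 58 nuclei, described next, had 45.7 CPM of Acan (14.8 to 107) from 5 UMIs in 2 nuclei, an interval that covers the late inner-like level. Acan was also among the 10 genes that led the late inner-like subcluster, though it took no part in the clustering. Its UMIs were seen in 8.40% of late inner-like nuclei, and in 3.23% after thinning.

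Cspg4 had the same leading state among the larger subclusters, at 36.1 CPM (32.6 to 39.9) in late inner-like nuclei against 6.92 to 9.71 CPM in the other three. The small subcluster, led by Slc38a11, Myh11, Acta2 and Rgs5, genes of mural cells, had 192 CPM of Cspg4 (119 to 293) from 21 UMIs and no UMI of Tnc, which allows up to 27.4 CPM. Tnc was highest in arachnoid-like nuclei at 169 CPM (161 to 178), then in altered dural-like nuclei at 108 CPM (101 to 117), late inner-like nuclei at 64.1 CPM (59.4 to 69.0) and the unnamed subcluster at 36.6 CPM (29.7 to 44.6). Vcan was highest in that unnamed subcluster at 161 CPM (146 to 177), followed by late inner-like nuclei at 117 CPM (110 to 123), and did not differ beyond counting error between arachnoid-like (59.6 CPM) and altered dural-like nuclei (53.1 CPM).

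**Figure D2:**
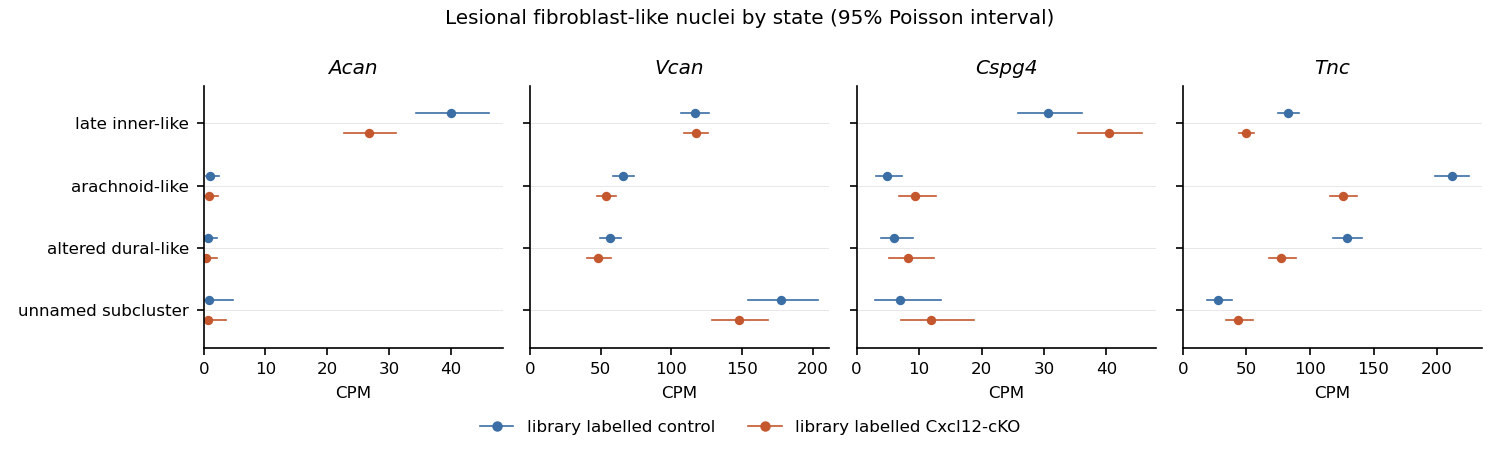
Level of Acan, Cspg4, Tnc and Vcan in CPM by subcluster of lesional fibroblast-like nuclei, shown for each library with 95% Poisson intervals. Acan sits in the late inner-like subcluster in both libraries (40.0 and 26.7 CPM), and Tnc is lower under the Cxcl12-cKO label in the 3 named states.

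A further 420 nuclei, formed a cluster led by Postn. It matched the fibroblast list (7 markers up, mean log2 fold 4.93) and also the osteoblast lineage list (4 up, 3.10), so it was left unnamed and out of the fibroblast-like class. There were 338 under the control label (4.18% of its lesional nuclei) and 82 (1.03%) under the Cxcl12-cKO label. They had the highest Tnc of any cluster described here, 1265 CPM (1201 to 1332), with 1249 and 1334 CPM in the libraries. Acan reached 35.8 CPM, Vcan 125 CPM and Cspg4 29.7 CPM in them.

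Tnc, Bcan and Vcan divided the astrocyte-like nuclei. The largest of the clusters, 475 nuclei led by A2m and Shroom3, of which 469 were lesional, had 588 CPM of Tnc, 82.8 CPM of Bcan, 37.1 CPM of Vcan and no UMI of Acan. A cluster of 156 nuclei led by Grin2c and Slco1c1, both astrocyte genes, had 137 CPM of Tnc but 455 CPM of Bcan, 2295 CPM of Ptprz1, 136 CPM of Ncan and 90.0 CPM of Hapln1. The remaining 326 nuclei, led by Cdh19 and Col4a6 and all but 1 lesional, had 53.1 CPM of Tnc, 389 CPM of Vcan, 1743 CPM of Tnr, 55.0 CPM of Cspg4 and 36.0 CPM of Acan. In these last nuclei the summed OPC markers (3475 and 4091 CPM) were close to the summed astrocyte markers (3709 and 4003 CPM). The part of OPC transcripts in their Acan, Vcan, Tnr and Cspg4 was not tested. These nuclei raised the levels of those genes given above for the whole astrocyte-like class. Parenchymal astrocyte-like nuclei were few, 37 and 45, and in them Bcan was at 479 and 506 CPM, Ptprz1 at 2483 and 2480 CPM, Hapln1 at 109 and 117 CPM and Tnc at 98.0 and 108 CPM.

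**Figure D3:**
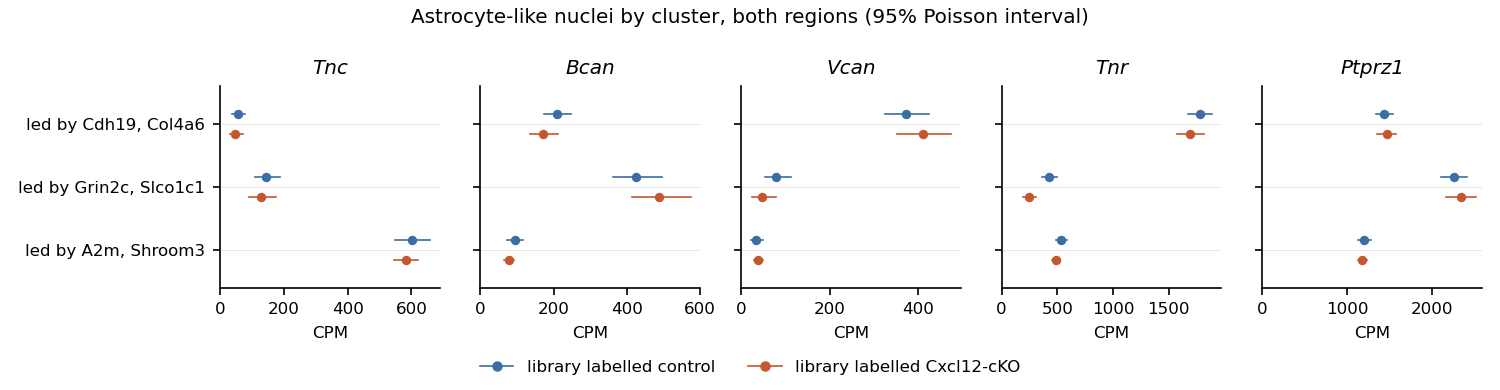
Level of Tnc, Bcan, Vcan, Tnr and Ptprz1 in CPM in the 3 clusters of astrocyte-like nuclei by library, with 95% Poisson intervals. Tnc is highest in the cluster led by A2m (601 and 582 CPM), Bcan and Ptprz1 in that led by Grin2c, and Vcan and Tnr in that led by Cdh19, in both libraries.

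Among interneurons, Acan and Bcan marked Pvalb-like nuclei, the parvalbumin cells that perineuronal nets usually enclose. Acan stood at 15.4 CPM (11.9 to 19.6) in 264 Pvalb-like nuclei, with a UMI in 19.7% of them (2.27% after thinning), and had 1 UMI in 230 Sst-like nuclei and 0 UMIs in 151 Vip-like and 100 Lamp5-like nuclei, which allows up to 1.67 and 2.34 CPM (3 UMIs). The Pvalb-like level of Acan was 15.8 and 14.9 CPM in the libraries, and 18.9 and 17.4 CPM in lesional against 14.6 and 14.5 CPM in parenchymal nuclei, all within counting error. Bcan was at 61.6 CPM (54.3 to 69.6) in Pvalb-like and 15.5 CPM in Sst-like nuclei, and Tnr at 583 CPM against 415 CPM in Sst-like, 122 CPM in Lamp5-like and 114 CPM in Vip-like nuclei. With types set by single markers Tnr was 602, 405, 326 and 173 CPM in the same order. Acan, Bcan and Tnr thus led in the same interneuron type.

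Hapln1 and Vcan followed another order. Lamp5-like nuclei had 126 CPM of Hapln1 (107 to 147), against 10.9 CPM in Pvalb-like nuclei, and 172 CPM of Vcan (150 to 197), against 4.50 CPM. Taking instead the nuclei with a UMI of Lamp5 and of no other type's marker gave 54.4 CPM of Hapln1 and 86.8 CPM of Vcan, with the order of types kept for both. In Lamp5-like nuclei the libraries differed for Vcan, at 226 CPM (192 to 265) under the control label and 112 CPM (87.4 to 143) under the other, from 52 and 48 nuclei. Vip-like nuclei had the highest interneuron level of Ptprz1, 379 CPM (351 to 408), and of Tnc, 22.3 CPM (15.9 to 30.3) from 40 UMIs. By the single markers these were 557 and 7.48 CPM.

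**Figure D4:**
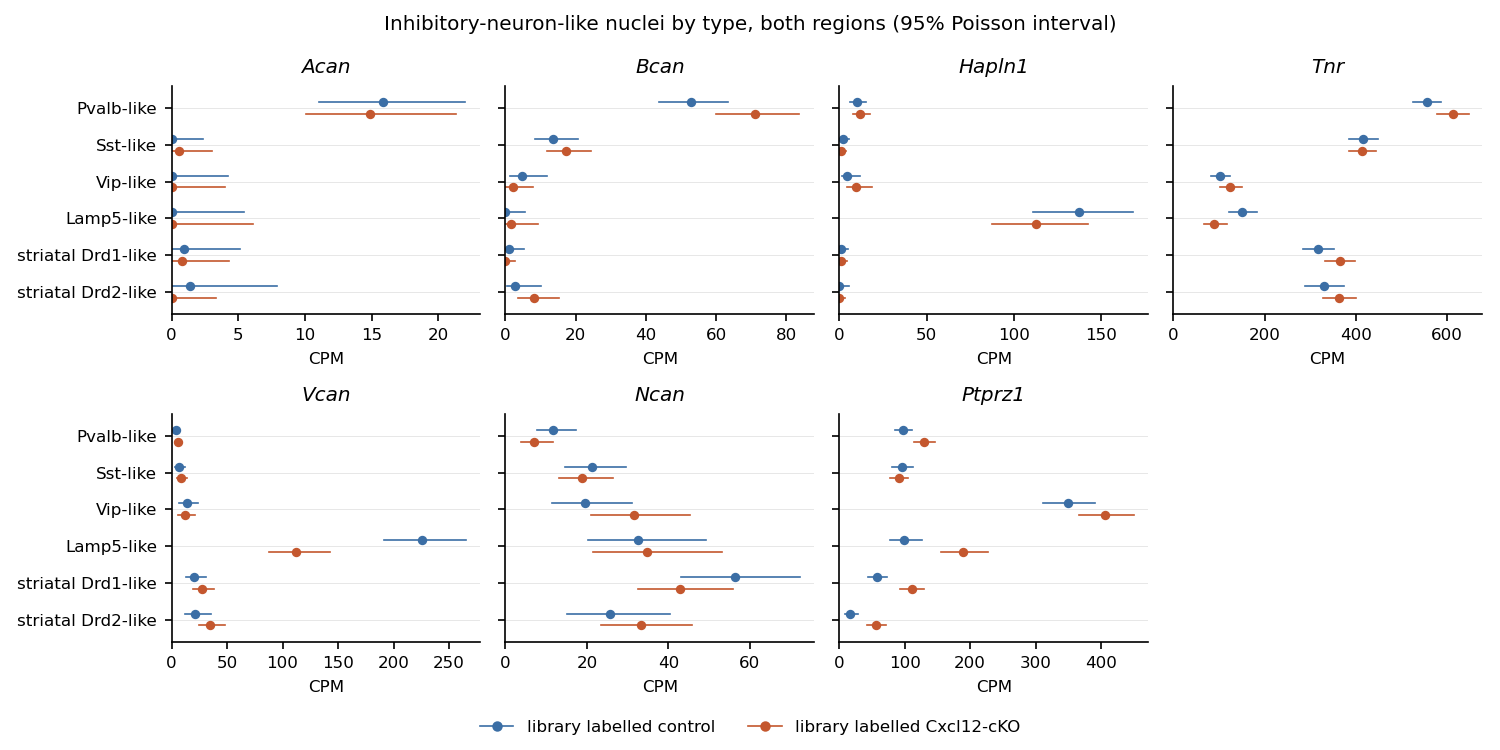
Level of 7 of the genes in CPM by type of inhibitory neuron-like nuclei and library, both regions together, with 95% Poisson intervals. Acan and Bcan peak in Pvalb-like nuclei (Acan 15.8 and 14.9 CPM), Hapln1 and Vcan in Lamp5-like nuclei (Vcan 226 and 112 CPM) and Ptprz1 in Vip-like nuclei in both libraries.

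Excitatory neurons carried mainly Tnr and Ncan. Ncan ranged from 30.7 CPM in near-projecting-like nuclei to 57.1 CPM in layer 6-like nuclei. Tnr ranged from 317 CPM in near-projecting-like nuclei, through 391 CPM in middle layer, 411 CPM in layer 5 and 491 CPM in layer 6 nuclei and 574 CPM in upper layer nuclei, to 914 CPM (873 to 957) in 98 entorhinal or claustral-like nuclei. The last also had 104 CPM of Vcan (90.7 to 120), against 3.45 to 9.80 CPM in the other excitatory types.

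Between the libraries, ratios are given on the log2 scale with the control label as denominator, for genes with at least 50 UMIs in the pair, and a change of 1.5-fold or more was counted. In lesional fibroblast-like nuclei 8 of the 9 genes could be compared, of which Tnc was lower and Cspg4 higher, against 6.16% of 14466 genes past that fold in this class. Tnc had 1926 UMIs, or 132 CPM (126 to 138), under the control label and 1158 UMIs, or 77.4 CPM (73.0 to 82.0), under the Cxcl12-cKO label, a log2 ratio of -0.77 (-0.88 to -0.67). It was lower in both sexes, at 139 against 69.7 CPM in the females and 134 against 79.1 CPM in the males. Each such pair compares different animals, because each mouse entered 1 library only. The 3 nuclei richest in Tnc held 135 of 1926 and 60 of 1158 UMIs.

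Lower Tnc was seen within each named state. In arachnoid-like nuclei Tnc was 212 and 126 CPM (log2 -0.75, -0.90 to -0.60), in altered dural-like nuclei 129 and 77.5 CPM (-0.74, -0.98 to -0.50) and in late inner-like nuclei 82.8 and 49.8 CPM (-0.73, -0.95 to -0.51). The unnamed subcluster led by Gm30613 went the other way, with 32 and 66 UMIs of Tnc, or 27.6 and 43.5 CPM (0.65, 0.03 to 1.32). With all subclusters weighted by the same mix in both libraries Tnc was 128 and 79.3 CPM (-0.70), close to the unweighted ratio. With the Postn-led nuclei added to the class the ratio of Tnc was -1.06, and with classes assigned nucleus by nucleus from markers it was -1.23.

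Cspg4 had 209 and 341 UMIs in lesional fibroblast-like nuclei, or 14.3 and 22.8 CPM (log2 0.67, 0.42 to 0.92), and was higher in both sexes, at 11.4 against 23.7 CPM in the females and 17.4 against 24.3 CPM in the males. Pericytes also make NG2, and the summed mural markers of these nuclei were 211 and 236 CPM. A finer clustering called 41 and 14 of these nuclei mural, with 9 and 10 of the Cspg4 UMIs. Without them Cspg4 was 13.8 and 22.2 CPM. So few UMIs could hardly move the ratio, and the part of pericytes in it was not tested. With the mix of states held the same Cspg4 was 15.3 and 21.8 CPM (0.52), under 1.5-fold.

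The other fibroblast genes were under 1.5-fold. Acan was at 13.7 and 11.4 CPM (log2 -0.26, -0.57 to 0.04) over all lesional fibroblast-like nuclei. The females had 11.6 and 12.3 CPM and the males 16.7 and 10.8 CPM. With the same mix of states in both libraries Acan was 15.4 and 10.3 CPM (-0.58), just under 1.5-fold. Within the late inner-like state it was at 40.0 and 26.7 CPM (-0.58, -0.89 to -0.27), from 187 and 164 UMIs, and was lower in both sexes there, at 38.3 against 29.3 CPM in the females and 44.2 against 25.2 CPM in the males. Late inner-like nuclei made up 32.0% and 38.3% of the lesional fibroblast-like nuclei. Vcan was equal, at 88.0 and 88.2 CPM (0.00, -0.11 to 0.12). The background genes Tnr (19.1 and 21.5 CPM) and Ptprz1 (10.4 and 11.9 CPM) also stayed close.

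In lesional astrocyte-like nuclei Bcan and Hapln1 were lower among 8 genes compared, against 9.21% of 8396 genes past 1.5-fold. Bcan was 172 and 109.5 CPM (log2 -0.65, -0.91 to -0.39) from 275 and 223 UMIs, and Hapln1 21.9 and 11.8 CPM (-0.88, -1.71 to -0.10) from 35 and 24 UMIs. The clusters of astrocyte-like nuclei differed between the libraries: the Grin2c-led nuclei, richest in both genes, were 20.4% and 12.5%, and the A2m-led nuclei 38.3% and 60.2%. With the clusters weighted alike Bcan came to -0.17 and Hapln1 to -0.56, and none of the 8 genes with 50 UMIs was past 1.5-fold. Tnc was 345 and 451 CPM (0.39, 0.23 to 0.54), but 495 and 465 CPM in the females and 195 and 445 CPM in the males, and within the A2m-led cluster it was 601 and 582 CPM. Tnr (-0.43), Vcan (-0.48) and Ptprz1 (-0.14) were lower by less than 1.5-fold.

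OPC-like nuclei of the lesion, 79 and 105, had 5 genes with enough UMIs and 0 past 1.5-fold, against 12.3% of 3347 genes. Tnr was 10139 and 9621 CPM (-0.08), Ptprz1 1319.6 and 1384 CPM (0.07), Vcan 1164 and 895 CPM (-0.38) and Cspg4 103 and 98.4 CPM (-0.07). In myeloid-like nuclei 1 of 5 genes was past the fold, against 6.36% of 11539 genes. This was Tnc, at 9.23 and 5.88 CPM (-0.65, -1.37 to 0.07) from 36 and 34 UMIs, an interval that includes no difference. Cspg4 was 39.7 and 51.4 CPM in them (0.37, 0.09 to 0.66). In lesional oligodendrocyte-like nuclei 1 gene, Tnr, could be compared and was higher. Of 4419 genes there, 5.32% were higher and 5.02% lower past 1.5-fold. Tnr had 22 and 106 UMIs, or 38.4 and 154 CPM, but 60 of the 106 UMIs were in 1 nucleus.

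Neurons of the lesion, as classed here, had 0 members past 1.5-fold between the libraries, among 5 genes compared in excitatory nuclei (7.12% of 10514 genes were past it) and 4 in inhibitory nuclei (18.3% of 6800 genes). Other settings gave 1 or 2 members in excitatory and 1 in inhibitory nuclei. In parenchymal excitatory nuclei 7 genes ranged from -0.15 for Ncan to 0.35 for Ptprz1, with 0 past the fold against 3.67% of 16686 genes. In parenchymal inhibitory nuclei 1 of 7 genes was past it, against 3.94% of 12630 genes. This was Vcan, with 231 and 175 UMIs, or 33.0 and 21.3 CPM (-0.63, -0.93 to -0.34), lower in both sexes at 31.1 against 23.4 CPM in the females and 38.3 against 22.0 CPM in the males. The ratio of Vcan kept its direction in 10 of 10 other settings (-0.79 to -0.41) but passed 1.5-fold in 4, and not at resolution 0.5 (-0.57), without high Scrublet scores (-0.45) or with nuclei weighted alike (-0.43).

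Parenchymal striatal-like inhibitory nuclei differed the other way for Ptprz1. It was 58.5 and 127 CPM (log2 1.11, 0.65 to 1.60) in Drd1-like nuclei, from 59 and 66 nuclei, and 15.9 and 62.6 CPM (1.92, 1.03 to 3.05) in Drd2-like nuclei, from 50 and 60 nuclei. Striatal-like nuclei made up 10 of 137 (7.30%) and 55 of 141 (39.0%) inhibitory nuclei of the lesion, which is beside every lesional inhibitory value here.

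**Figure D5:**
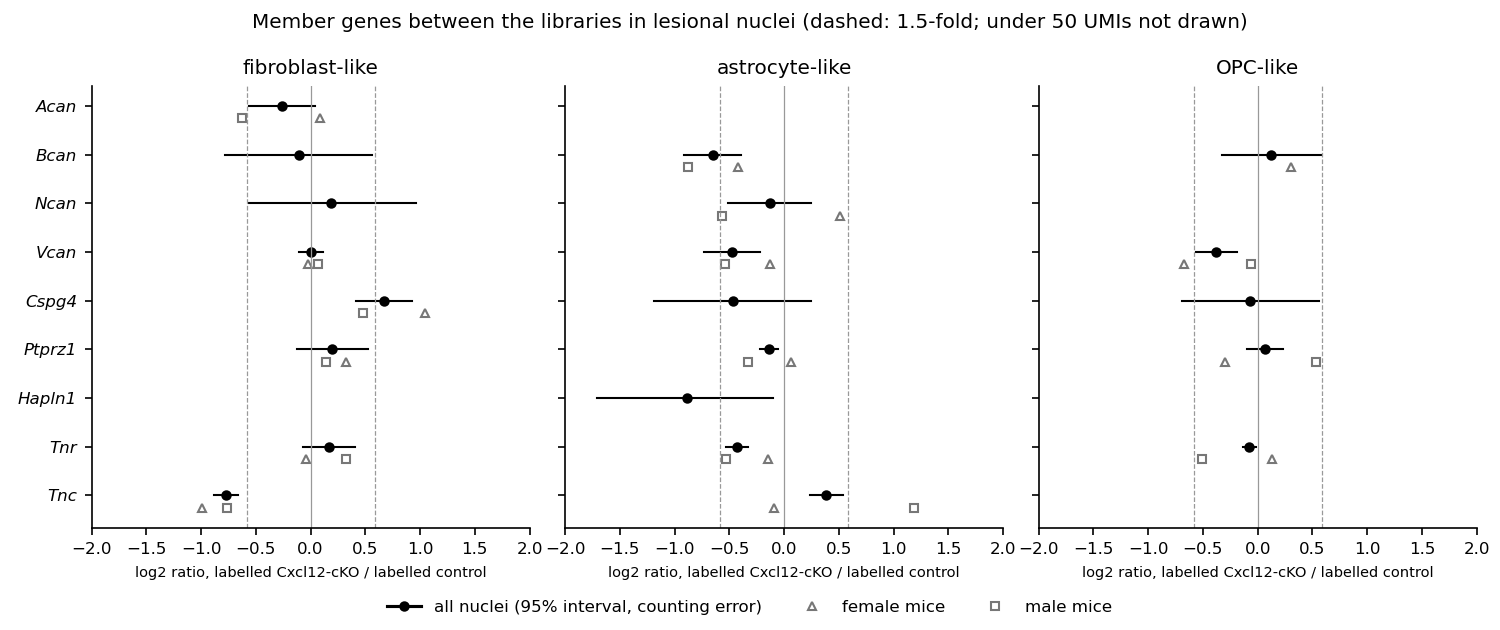
Log2 ratio of Cxcl12-cKO label to control label for each gene in lesional fibroblast-like, astrocyte-like and OPC-like nuclei, with 95% intervals (circles, all nuclei; triangles, females; squares, males; dashed lines, 1.5-fold). Genes with under 50 UMIs are not drawn, and Tnc in fibroblast-like nuclei lies below the lower line for all nuclei (-0.77), females (-0.99) and males (-0.76).

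Lesion and parenchyma were compared within each library for neurons. In excitatory nuclei 2 of 6 genes under the control label and 4 of 6 under the Cxcl12-cKO label were past 1.5-fold, against 28.4% of 15252 and 30.9% of 15009 genes, whose median log2 ratios (lesion over parenchyma) were -0.12 and -0.10. Tnr was 514 in parenchyma and 582 CPM in lesion under the control label and 502 and 561 CPM under the other (log2 0.18 and 0.16), and Ncan was 45.9 and 53.5 CPM and 41.4 and 51.7 CPM (0.22 and 0.33). Both abundant genes were thus slightly higher in lesional excitatory nuclei in each library, by less than 1.5-fold. Bcan was lower, from 3.74 to 1.57 CPM (-1.20) and from 3.43 to 1.26 CPM (-1.28), with 12 and 4 lesional UMIs. All of these Bcan levels were near or below those of lesional myeloid-like nuclei (4.10 and 3.29 CPM). Those nuclei had median depths of 2045 and 2253.5 UMIs, against 13816.5 and 12221 in lesional excitatory nuclei. At such unlike depths the myeloid-like CPM sets no floor for neurons, and the part of free RNA in these ratios was not tested. Tnc went from 1.63 to 6.65 CPM and from 1.90 to 7.57 CPM (2.03 and 2.02), levels near those of lesional myeloid-like nuclei, and 25 of 51 and 18 of 24 lesional UMIs lay in 3 nuclei. Under the Cxcl12-cKO label the ratio of Tnc dropped to 0.36 at resolution 0.5 and 0.56 without high Scrublet scores.

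In inhibitory nuclei 2 of 7 genes under the control label and 5 of 6 under the Cxcl12-cKO label were past 1.5-fold, against 26.4% of 10931 and 30.1% of 11243 genes, with medians of -0.03 and -0.10. Ptprz1 was lower in lesional inhibitory nuclei in both libraries, from 130.1 to 81.9 CPM (-0.66) and from 155 to 60.6 CPM (-1.35). Bcan went from 21.4 to 17.5 CPM (-0.28) and from 25.3 to 10.2 CPM (-1.26), and Vcan went from 33.0 to 42.2 CPM (0.36) and from 21.3 to 45.3 CPM (1.10). Tnr was 387 and 386 CPM (0.00) and 394 and 349.8 CPM (-0.17). The mix of interneuron types differed between the regions and, through the striatal-like share above, between the libraries, and its part was not tested. Tnc went from 1.86 to 22.3 CPM (3.55) under the control label, where 18 of 37 lesional UMIs lay in 3 nuclei, and had too few UMIs under the other.

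Parenchymal fibroblast-like nuclei numbered 61 in each library. They held no UMI of Acan and 3 and 1 of Tnc, against 17 and 14 of Cspg4. Of the Cspg4 UMIs, 17 of 17 and 11 of 14 lay in 9 and 12 nuclei called mural in the finer clustering, and the summed mural markers were 547 and 800.3 CPM there.

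Genes that build, bind or cut these proteoglycans were listed by role and compared in the same way, and 6.16% of all genes were past 1.5-fold in lesional fibroblast-like nuclei (3.41% of all genes higher). In lesional fibroblast-like nuclei all 12 genes of chain linkage and polymerisation could be compared, of which 1 was higher and 0 lower (median log2 ratio 0.17). That gene was B3galt6, with 19 and 31 UMIs (0.65, -0.20 to 1.57). Of 9 hyaluronan genes 7 could be compared and 2 were higher (median 0.17). Has2, which makes hyaluronan, was 3.84 and 8.56 CPM (1.15, 0.69 to 1.63), and the receptor gene Hmmr, also a gene of dividing cells, had 22 and 45 UMIs (0.98). Of 6 lectican proteases all were compared and 1 was higher (median 0.16), which was Adamts20, at 4.94 and 9.43 CPM (0.93). Sulfation genes (6 of 10 compared, median 0.02), receptors and ligands (7 of 8, median -0.12) and the further link proteins and tenascins (1 of 5, 0.01) had 0 past the fold. Of 2 other carriers of chondroitin sulfate Cd74, the invariant chain of antigen-presenting cells, was lower, at 22.2 and 10.8 CPM (-1.03). The median over all 14466 genes was 0.00.

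In lesional astrocyte-like nuclei 2 partner genes were higher and 2 lower, where 9.21% of all genes were past 1.5-fold. The A2m-led nuclei made up 38.3% and 60.2% of the class, and the part of this mix in the partner genes was not tested. The protease gene Adamts5, which cuts aggrecan, was 75.0 and 126 CPM (log2 0.75), and Cemip2, which breaks down hyaluronan, was 60.6 and 98.2 CPM (0.69). Ust, a sulfotransferase, was 111 and 64.8 CPM (-0.77), and Cntn1, a neural adhesion protein that binds the PTPRZ1 protein, was 240.0 and 152 CPM (-0.66). The chain linkage genes had 8 of 12 compared and 0 past the fold (median -0.15), the sulfation genes 3 of 10 compared (median -0.32), the hyaluronan genes 4 of 9 (0.38), the proteases 4 of 6 (0.33) and the receptors and ligands 4 of 8 (-0.21), against a median of -0.01 over all 8396 genes.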

How the data were processed

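The deposited matrices hold whole-number UMI counts per gene and nucleus, which the authors made with Cell Ranger 9.0.0 on GRCm39 (versions per the labels and the submitters' processing notes). The sources used here do not say whether intronic reads were counted. Levels are not compared between genes. The tag libraries were used only through the regions already split in the matrices.

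Nuclei were kept between the 2.5th and 97.5th percentiles of UMIs and genes and with at most 8.75% mitochondrial UMIs, which removed 1746. Counts were scaled to 10000, and 3000 variable genes without the 9 members gave 30 principal components, 20 neighbours and Leiden clusters at resolution 0.25 (scanpy 1.11.5, leidenalg 0.10.2, numpy 2.4.6, pandas 2.3.3). Mixed glia and neurons were clustered again at 0.5, and lesional fibroblasts at 0.25. A cluster was named from a marker list when at least 3 markers were up with a mean log2 fold of at least 0.5. A name was withheld where another list had at least 4 markers up and over 0.5 times its fold, except between the related pairs of OPC and oligodendrocyte and of astrocyte and ependymal lists. Without that exception the OPC-like and ependymal-like clusters would be unnamed. These thresholds were set after the clusters were seen. Scrublet marked 259 lesional and 2 parenchymal nuclei under the control label and 274 and 3 under the other as doublets, and they stayed in.

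UMIs were summed by class, region and library. Intervals at 95% are exact Poisson for levels, exact binomial for shares, and an exact binomial split for log2 ratios, with 0.5 added (scipy 1.17.1). A ratio needed 50 nuclei on each side and 50 UMIs over both. Results were recomputed under 21 other settings, and under 2 more chosen after the data were seen. Summing and intervals were tested on simulated data. Named partner genes are those past 1.5-fold, and genes like a member come from its 3 highest correlations. The members and lists were chosen with earlier results of these data known.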

Additional observations from a re-analysis of the deposited data

Results flagged for a closer look

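For a few genes the ratio between the libraries had opposite directions in the females and the males, or in different fibroblast subclusters. None of these differences was tested. Each mouse entered 1 library only, so sex and animal cannot be told apart. In lesional OPC-like nuclei Ptprz1 had a log2 ratio of -0.30 between the females and 0.54 between the males, and Tnr 0.13 and -0.51. These rest on 35 and 58 female and 33 and 23 male nuclei, mostly under the 50 nuclei a side that other ratios needed. In lesional inhibitory nuclei Vcan went from 8 to 43 UMIs in the females (1.91) and from 53 to 6 UMIs in the males (-1.40), from 63 and 105 female but 54 and 17 male nuclei. Among lesional fibroblast-like nuclei Tnc was lower in altered dural-like (-0.74), arachnoid-like (-0.75) and late inner-like nuclei (-0.73) and higher in the unnamed subcluster led by Gm30613 (0.65). The last ratio came from 27.2 and 32.2 CPM in the females and 14.9 and 90.2 CPM in the males, so the difference there lay mostly in the males.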

How the results depend on the processing

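No paired analysis was possible because each genotype has 1 library and no result comes from a test. Lower Tnc in lesional fibroblast-like nuclei kept its direction and passed 1.5-fold in 12 of 12 alternatives (-1.23 to -0.69), females alone and males alone included. Higher Cspg4 there kept its direction in 12 and passed in 8 (0.48 to 1.04), lower Bcan in astrocyte-like nuclei in 11 and 8 of 11 (-0.88 to -0.17), and lower Hapln1 in 11 and 9 (-1.25 to -0.30). Of the values for single genes 545 stayed close, 72 moved and 5 reversed. The number of members past 1.5-fold in lesional astrocyte-like nuclei went from 2 to 1 with nuclei weighted alike, and to 0 in females and with the same cluster mix. In fibroblast-like nuclei it went from 2 to 1 with the same mix or with the Postn-led nuclei added. In lesional excitatory nuclei it went from 0 to 2 with nuclei assigned by their own markers, nuclei weighted alike, no filter, or members kept among the clustering genes, and to 1 without high Scrublet scores or in females. In parenchymal excitatory nuclei females gave 2. Lesional inhibitory nuclei went from 0 to 1 with their own markers, no filter, females, or members kept. Parenchymal inhibitory nuclei went from 1 to 0 at resolution 0.5, without high Scrublet scores, weighted alike or with members kept, and to 2 in females. Myeloid-like nuclei went from 1 to 0 at resolution 0.5, weighted alike, without a filter, in males, or with members kept. Oligodendrocyte-like nuclei went from 1 to 0 with their own markers and to 2 with members kept. Between regions, excitatory nuclei under the Cxcl12-cKO label went from 4 to 2 at resolution 0.5 or without high Scrublet scores, and inhibitory nuclei under the control label from 2 to 1 without high Scrublet scores. Nuclei assigned by their own markers kept the leading class of 4 of 9 genes. At resolution 0.5 or without high Scrublet scores the leading class became mural for Acan and Cspg4 and stayed for the other genes. A minimum of 20 UMIs raised the genes past 1.5-fold to 1371 in OPC-like, 1807 in astrocyte-like, 1703 and 1470 in lesional and parenchymal excitatory, 1679 in fibroblast-like, 2390 and 1317 in lesional and parenchymal inhibitory and 1489 in myeloid-like nuclei, and to 4453 between regions in inhibitory nuclei under the control label, as more genes with few UMIs entered. Ratios that reversed were Tnc in male myeloid-like nuclei (0.15), Tnr in oligodendrocyte-like nuclei by their own markers (-0.49), Vcan between regions in excitatory nuclei under the Cxcl12-cKO label at resolution 0.5 (-0.014) and without high Scrublet scores (-0.40), and Cspg4 between regions in fibroblast-like nuclei under the control label at resolution 0.5 (2.66). The cause was not tested. Counts of members past the fold by mouse were not made for OPC-like nuclei or for male lesional neurons and oligodendrocyte-like nuclei, which had under 50 nuclei on a side, though some of their ratios are given above. Depth limits Acan and Hapln1 most, with at most 529 lesional UMIs of Acan over both libraries.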
